A study of Mus musculus with 2 samples.

Results

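The genes described here are 34 genes of glycolysis and of the response to low oxygen, chosen by their symbols from the 31053 genes in the deposited tables. They cover the route from glucose entry to lactate export (Slc2a1 to Slc16a3), the pyruvate dehydrogenase kinase Pdk1, and genes around the hypoxia-inducible factor HIF-1 (Hif1a, Egln1, Egln3, Bnip3, P4ha1, Mif, Ndrg1, Higd1a, Ankrd37 and Adm). Each symbol stands on 1 row of the tables except Aldoa, whose 2 identifiers were summed. The study sorted CD45+CD11b+ cells from the liver of C57BL/6 mice, after a density gradient, and made droplet libraries that count the 3′ ends of transcripts in single cells. The Ctrl library comes from uninjured controls and the RES library from mice whose liver fibrosis had resolved, with cells of 5 mice pooled in each library. The labels name no injury agent, age or sex. With 1 library per group the mice cannot be told apart, so no difference below has a replicate check or a p-value, and the 95% intervals cover counting error only.

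Glycolysis splits glucose into pyruvate in the cytosol, and lactate dehydrogenase turns pyruvate into lactate when it is not passed on to the mitochondria. HIF-1α is hydroxylated by prolyl hydroxylases in the presence of oxygen and then degraded; at low oxygen it accumulates and, with its partner, binds a short DNA core in the promoters of many glycolytic genes. In macrophages the same factor is also known to be raised by inflammatory signals and by lactate, and a shift to glycolysis is a known feature of their activation.

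After filtering, 3351 Ctrl cells and 4019 RES cells remained, with medians of 4510 and 6357 unique molecular identifiers (UMIs, 1 per captured transcript) per cell; 56 cell barcodes occur in both libraries. Cells were assigned to classes by markers that include none of the 34 genes. Mononuclear phagocytes numbered 857 in Ctrl and 1795 in RES. They were divided into Arg1 macrophages (5 or more UMIs of Arg1, the arginine-splitting enzyme arginase; 9 and 604 cells), C1q macrophages below that Arg1 minimum (83 and 58 cells), classical monocytes (311 and 498), nonclassical monocytes (205 and 282), intermediate monocytes with both marker sets (167 and 302) and phagocytes of no such set (82 and 51). Natural killer (NK) cells numbered 1588 and 1490, cDC2 218 and 139, cDC1 54 and 40 (the conventional dendritic cell types), and B cells 64 and 55. Transcripts of the sorted markers were present in the phagocytes, Ptprc (CD45) at 1919 and 1258 CPM and Itgam (CD11b) at 265.6 and 501.9 CPM in Ctrl against RES, whereas in cDC1 Itgam stood at 19.4 and 37.4 CPM. Levels below are the UMIs of a gene in a class scaled to a class total of 1000000 UMIs (CPM).

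In mononuclear phagocytes as a whole, nearly every step of glycolysis from phosphofructokinase to lactate export was higher in RES than in Ctrl, while the measured hexokinases, Hk1 and Hk2, differed little. A gene was called measured where the mean of both groups was at least 20 CPM, and higher or lower where the ratio reached 1.5-fold. Of the 25 members measured, 20 were higher and 0 lower, beside 6.35% of all 5657 measured genes higher and 4.72% lower; the median log2 ratio was 1.21 for the members and 0.03 for all genes. Slc2a1, Pdk1 and Ankrd37 reached the minimum only through their RES level. The summed UMIs of the 34 genes made up 0.327% of all phagocyte UMIs in Ctrl and 0.709% in RES. Most of this difference lay with the Arg1 macrophages. Without them, 2 of 24 measured members were higher (Eno1 and Ndrg1) and 0 lower, beside 2.33% and 2.43% of all genes, and the members' median log2 ratio was 0.18. That comparison holds 1191 RES and 848 Ctrl cells.

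**Figure D1:**
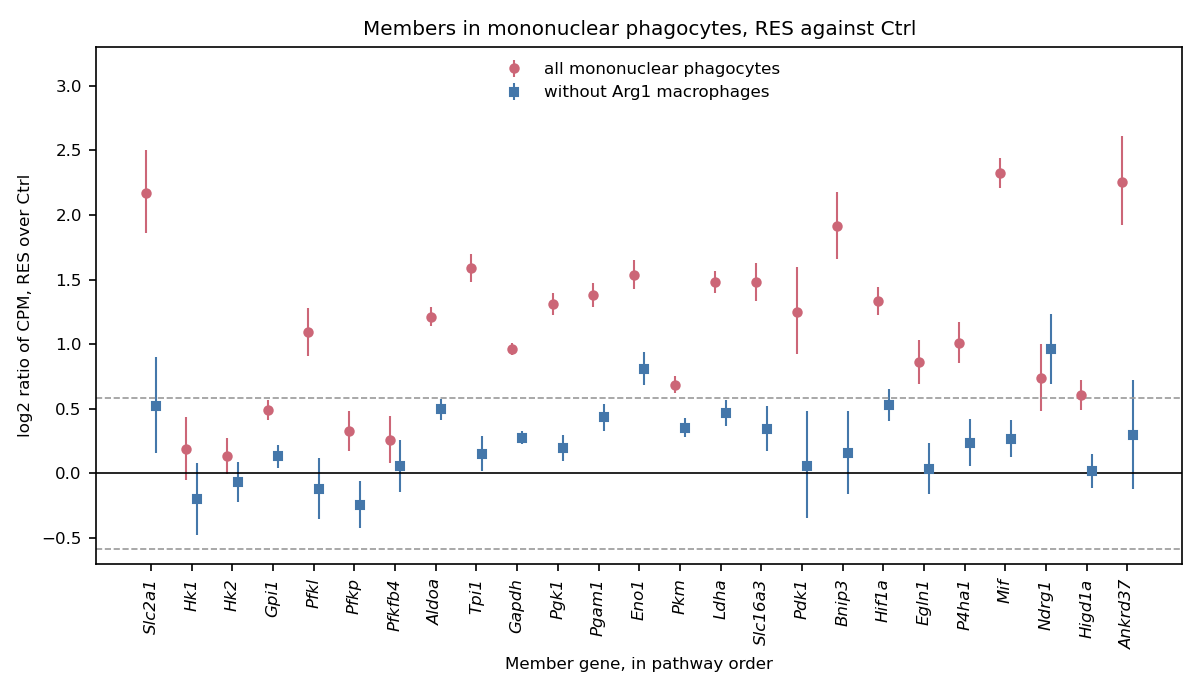
Log2 ratio of CPM, RES over Ctrl, of the 25 members measured in mononuclear phagocytes, for all phagocytes (circles) and without Arg1 macrophages (squares); bars are 95% intervals for counting error and dashed lines mark 1.5-fold. With all phagocytes 20 members lie past the upper line, and without Arg1 macrophages only Eno1 (0.81) and Ndrg1 (0.96) do.

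At the entry of glucose, the carrier Slc2a1 (GLUT1) stood at 13.5 CPM in Ctrl phagocytes (95% interval 10.8 to 16.6; 89 UMIs) and at 60.6 CPM in RES phagocytes (57.2 to 64.3; 1141 UMIs), a log2 ratio of 2.17 (1.86 to 2.50). Without Arg1 macrophages the Slc2a1 levels were 13.5 and 19.3 CPM, a log2 ratio of 0.52. The other carrier, Slc2a3 (GLUT3), had 21 UMIs in Ctrl and 40 in RES phagocytes and was not measured. Hexokinases trap glucose by phosphorylation. Hk2 stood at 86.8 and 95.3 CPM in Ctrl against RES (log2 ratio 0.13, -0.00 to 0.27) and Hk1 at 28.1 and 32.0 CPM (0.19, -0.05 to 0.43), so both intervals reach 0. Hk3 had 149 and 316 UMIs (22.5 and 16.8 CPM) and fell below the minimum.

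Between glucose 6-phosphate and the split of the sugar, the isomerase Gpi1 stood at 247.9 CPM in Ctrl against 348.0 CPM in RES phagocytes (log2 ratio 0.49). Of the phosphofructokinase subunits, which form the main control point of the pathway, Pfkl was at 41.3 and 87.9 CPM (1.09, 0.91 to 1.28) and Pfkp at 65.3 and 81.9 CPM (0.33, 0.17 to 0.48), so only the former passed 1.5-fold; Pfkm had 14 and 34 UMIs. Pfkfb3 and Pfkfb4 make the activator of phosphofructokinase: Pfkfb4 was at 50.5 and 60.5 CPM (0.26), and Pfkfb3 at 15.4 and 19.8 CPM, below the minimum. The aldolase Aldoa was at 267.7 and 619.7 CPM (1.21, 1.14 to 1.28), while its brain isozyme Aldoc had 16 and 102 UMIs.

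All 6 enzymes from triose phosphate isomerase to pyruvate kinase passed 1.5-fold. Tpi1 had 115.3 CPM in Ctrl against 347.5 CPM in RES phagocytes (log2 ratio 1.59), the highest ratio among them. The dehydrogenase Gapdh had 713.2 and 1391 CPM (0.96), the kinase Pgk1 196.4 and 487.7 CPM (1.31), the mutase Pgam1 164.8 and 428.6 CPM (1.38) and the enolase Eno1 106.7 and 309.5 CPM (1.54). Pyruvate kinase Pkm, whose splice forms are not told apart by 3′ counts, had 340.7 and 547.9 CPM (0.69). Reads of Gapdh, Eno1, Mif, Ldha, Pgk1, Pgam1, Tpi1 and Aldoa can also match processed copies elsewhere in the genome, and the sources used here do not say how the counting treated them. The Eno1 copy Eno1b, listed on a row of its own, held 16 and 83 UMIs in Ctrl and RES phagocytes beside 706 and 5825 of Eno1.

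At the fate of pyruvate, the lactate dehydrogenase subunit Ldha had 193.2 CPM in Ctrl against 538.0 CPM in RES phagocytes (log2 ratio 1.48, 1.39 to 1.56). Its partner Ldhb, the subunit typical of lactate-consuming tissue, had 21.0 and 12.8 CPM, below the minimum and lower in RES (-0.71, -1.02 to -0.40). The lactate exporter Slc16a3 (MCT4) had 64.2 and 179.2 CPM (1.48), and the other carrier Slc16a1 (MCT1) 8 and 80 UMIs. Pdk1, the kinase that closes the entry of pyruvate into the mitochondria, had 12.8 and 30.6 CPM (1.25).

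Around HIF-1, the factor's own transcript Hif1a had 112.9 CPM in Ctrl against 284.6 CPM in RES phagocytes (log2 ratio 1.33, 1.22 to 1.45). Of the prolyl hydroxylases that mark it for degradation, Egln1 had 51.8 and 94.2 CPM (0.86), and Egln3, itself a known target of the factor, had 19 UMIs in Ctrl and 589 in RES (2.87 and 31.3 CPM; 3.45, 2.79 to 4.19), with a mean below the minimum. The mitophagy receptor Bnip3 had 20.7 and 78.1 CPM (1.92) and the ankyrin-repeat gene Ankrd37 11.5 and 54.9 CPM (2.26). The cytokine Mif had 101.6 and 508.7 CPM (2.32, 2.21 to 2.44), the highest ratio of the measured members; its gene lies at chr10:75859353-75860240 (GRCm38, minus strand). P4ha1, a subunit of collagen prolyl hydroxylase, had 59.4 and 119.6 CPM (1.01), Ndrg1 22.8 and 38.2 CPM (0.74), and the mitochondrial protein Higd1a 113.7 and 173.1 CPM (0.61). Adm, the vasodilator adrenomedullin, had 0 UMIs in the phagocytes of both libraries, which allows up to 0.453 CPM in Ctrl against 0.159 CPM in RES.

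Other values moved with the groups in the phagocytes, and their part in the result was not tested. Haemoglobin transcripts, a sign of free RNA from red cells, were at 1.66 CPM in Ctrl against 12.6 CPM in RES phagocytes. The 14 genes of the dissociation response, which cell isolation can induce, summed to 2834 and 3689 CPM; 4 of the 14 were higher, led by the heat shock genes Hspa1b (log2 ratio 1.64) and Hspa1a (1.34), and 5 of 14 without Arg1 macrophages. Median depth was 7588 UMIs per phagocyte in Ctrl and 10019 in RES. The 10 neutrophil markers summed to 44.7 CPM in Ctrl against 80.9 CPM in RES phagocytes; S100a8 had 2.57 and 26.3 CPM, Mmp8 40.1 and 51.9 CPM, and Ly6g 0 UMIs in both. The platelet marker Pf4 had 22.8 and 81.4 CPM, with 63 of 151 UMIs in Ctrl and 1462 of 1532 in RES from Arg1 macrophages. The other platelet markers were low in both libraries: Ppbp had 1.06 and 2.60 CPM, Itga2b 0.45 and 0.58 CPM, and Gp9 0.45 and 0.48 CPM.

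Within RES, C1q-high macrophages with and without Arg1 were then set against each other, so that all cells come from 1 library. The 300 cells with 5 or more Arg1 UMIs were compared with the 50 cells with 0 or 1; the cells of 1 library are no replicates. Of the 27 members measured, 24 were higher with Arg1 and 1 lower (Hk3), beside 16.7% of all 5690 measured genes higher and 15.3% lower. The median log2 ratio was 1.5 for the members and 0.03 for all genes; Hk1, Pdk1, Bnip3, Egln3 and Ankrd37 reached the minimum only through the cells with Arg1, and Hk3 only through those without. Arg1 itself stood at 7877 and 10.2 CPM by construction, and the secreted phosphoprotein Spp1 at 1860 and 59.2 CPM. In RES NK cells, which should lack Arg1, it was at 22.7 CPM. With and without Arg1, median depth was 12788 and 10383.5 UMIs, haemoglobin 12.99 and 16.3 CPM, the dissociation genes 3288 and 3140 CPM and the share of cycling cells 3.33% and 10%. Larger differences lay in the phagocyte transcript Lyz2 (4843 and 9964 CPM) and in Ptprc (558.7 and 1366 CPM). The part of these values in the result was not tested.

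Of the genes around HIF-1, Bnip3 had 144.3 CPM (611 UMIs) with Arg1 and 6.12 CPM (3 UMIs, interval 1.26 to 17.9 CPM) without. That is a log2 ratio of 4.56, with a counting interval from 3.0 to 6.84. Ankrd37 had 98.3 and 12.2 CPM (log2 ratio 3.0, 1.87 to 4.46) and Egln3 65.4 and 12.2 CPM (2.42, 1.28 to 3.88). Mif had 1035 and 236.8 CPM (2.13), P4ha1 178.8 and 63.3 CPM (1.5), Egln1 145.5 and 61.2 CPM (1.25), and Hif1a 439.8 and 220.5 CPM (1.0). Higd1a reached 242.1 against 124.5 CPM (0.96). Ndrg1, in contrast, stood at 24.6 CPM with Arg1 and 26.5 CPM without (-0.11, -0.95 to 0.85).

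Among the enzymes, Hk1 was at 37.8 CPM with Arg1 (160 UMIs) and 8.17 CPM without (4 UMIs; log2 ratio 2.21, 0.83 to 4.10). Hk2 had 106.5 and 118.4 CPM (-0.15, -0.55 to 0.27), and Hk3 16.8 and 28.6 CPM (-0.77, -1.61 to 0.17), an interval that reaches 0. Slc2a1 had 103.0 and 28.6 CPM (1.85), Pfkl 156.6 and 42.9 CPM (1.87), Pfkp 109.8 and 40.8 CPM (1.43), Tpi1 638.3 and 161.3 CPM (1.98) and Slc16a3 284.2 and 83.7 CPM (1.76). Aldoa, Pgk1 and Pgam1 lay between 1.60 and 1.69, Ldha, Eno1 and Gapdh between 1.22 and 1.33, and Pfkfb4, Gpi1 and Pkm between 0.88 and 0.93. Pdk1 had 52.9 and 12.2 CPM (2.11). Ldhb again went the other way, with 2.36 CPM (10 UMIs) with Arg1 and 12.2 CPM (6 UMIs) without, below the minimum.

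**Figure D2:**
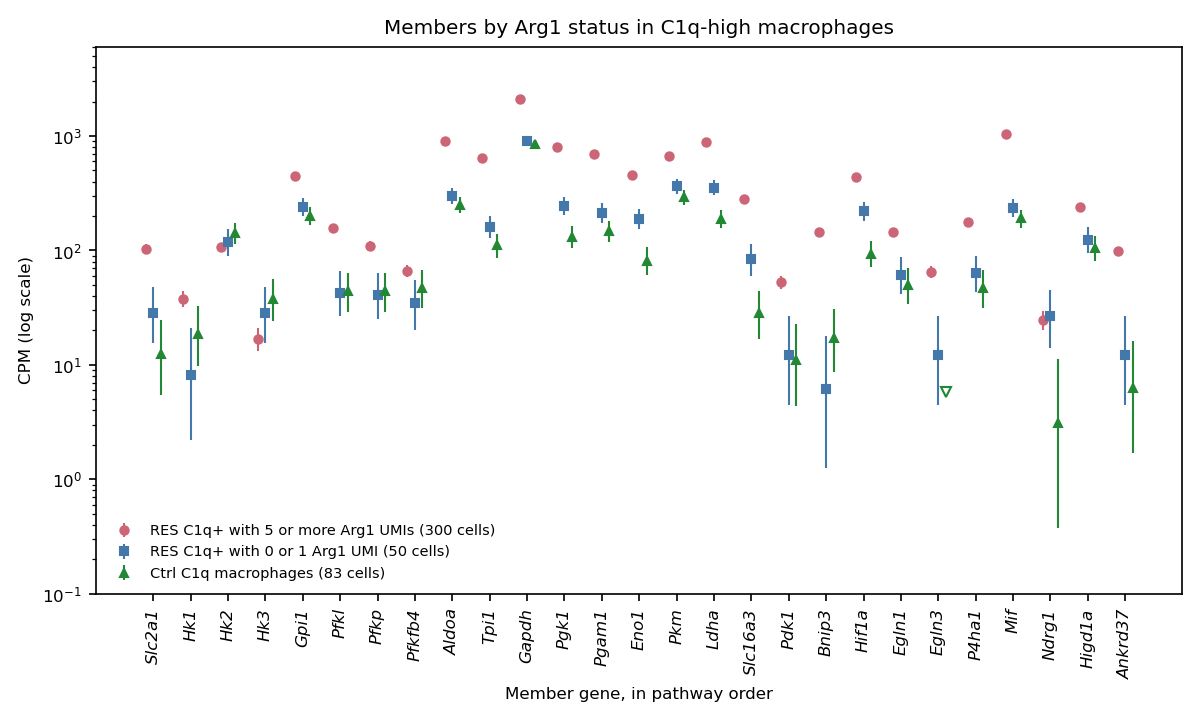
CPM on a log axis of the 27 members measured by Arg1 status, in RES C1q-high macrophages with 5 or more Arg1 UMIs (circles), with 0 or 1 (squares), and in Ctrl C1q macrophages (triangles); bars are 95% intervals for counting error and the open triangle marks the upper limit of 0 UMIs. The circles stand above the squares for most members, from Bnip3 (144.3 against 6.12 CPM) to Pkm (671.8 against 365.4 CPM), but not for Hk2, Hk3 and Ndrg1.

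The 304 RES Arg1 macrophages low in C1q had slightly higher levels than the 300 high in C1q. All 27 measured members were lower in the cells high in C1q, by log2 ratios from -0.49 (Ndrg1) to -0.04 (Gapdh), with a median of -0.18 beside -0.01 for all genes. Between the 2 sets, 0 of 27 members differed by 1.5-fold in either direction, beside 0.98% of all genes higher and 1.03% lower, and the 34 genes summed to 1.10% and 1.20% of UMIs. Set against classical monocytes of the same library, the Arg1 macrophages low in C1q were higher in 25 of 27 measured members and lower in 1, beside 18.3% and 15.8% of all genes; 4 members (Pfkfb3, Pdk1, Egln3 and Ankrd37) reached the minimum only through them. Egln3 was at 74.3 CPM in them and 1.85 CPM in the monocytes (log2 ratio 5.33), Ankrd37 at 126.4 and 7.97 CPM (3.99), Mif at 1086 and 96.0 CPM (3.5), Slc16a3 at 350.6 and 45.97 CPM (2.93) and Tpi1 at 688.9 and 104.9 CPM (2.72). The member lower in them was Ndrg1, at 34.6 and 68.2 CPM (-0.98).

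The levels did not climb steadily with Arg1. In RES phagocytes 991 cells had 0 Arg1 UMIs, 169 had 1, 31 had 2 to 4, 90 had 5 to 29, 260 had 30 to 99 and 254 had 100 or more. Tpi1 was at 113.1, 114.0, 227.4, 588.2, 612.9 and 716.5 CPM in these 6 bins, Slc2a1 at 17.9, 20.7, 48.9, 115.2, 111.2 and 121.7 CPM, and Mif at 98.9, 99.8, 302.3, 907.9, 947.9 and 1178 CPM. Most of the step lay between the cells with 1 UMI and those with 5 to 29. The bins of 5 or more UMIs are the 604 gated Arg1 macrophages and the cells below are mostly monocytes, so Arg1 level and cell class cannot be told apart at this step. Hif1a was highest in the bin of 5 to 29 UMIs, at 536.0 CPM, against 444.9 and 438.0 CPM in the bins above it. Hk2 ranged from 81.7 CPM (interval 75.8 to 87.8) with 0 Arg1 UMIs to 114.5 CPM (102.8 to 127.2) with 30 to 99. These 2 intervals do not overlap.

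**Figure D3:**
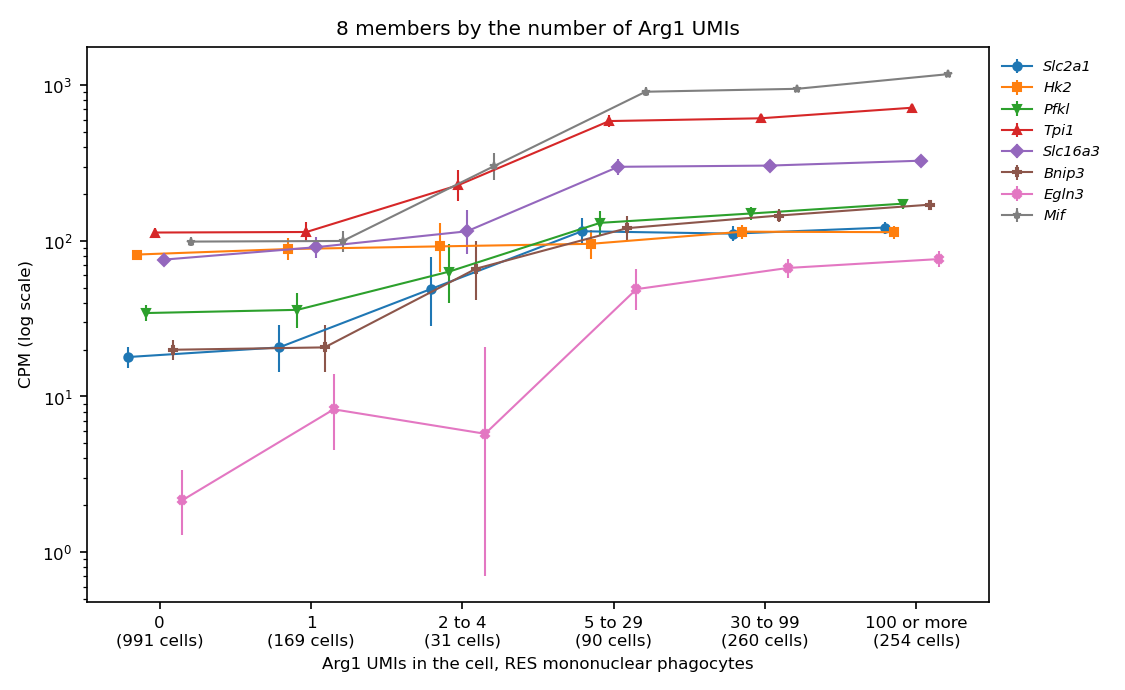
CPM on a log axis of 8 members in RES mononuclear phagocytes binned by the number of Arg1 UMIs in the cell; bars are 95% intervals for counting error and the number of cells stands under each bin. Tpi1, Mif, Slc2a1, Slc16a3, Pfkl, Bnip3 and Egln3 step up by the bin of 5 to 29 UMIs, while Hk2 stays between 81.7 and 114.5 CPM.

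Shares of cells with a UMI were compared after each cell had been thinned to 2000 UMIs. Bnip3 was then found in 24.7% of 603 RES Arg1 macrophages (exact 95% binomial interval 21.3 to 28.4), in 5.22% of 498 classical monocytes and in 0 of 57 C1q macrophages (exact upper bound 6.27%; 3 counts of 57 would be 5.26%). Ankrd37 was found in 18.1% of Arg1 macrophages and 1.61% of classical monocytes, and Egln3 in 12.1% and 0.201%. In the 57 C1q macrophages the shares were 1.75% for Ankrd37 and 5.26% for Egln3. The Egln3 interval there (1.10 to 14.6) overlaps that of the Arg1 macrophages (9.61 to 14.98). RES NK cells had shares of 1.86% for Bnip3, 0.897% for Ankrd37 and 0.138% for Egln3. Without thinning, at median depths of 12207 UMIs in Arg1 macrophages and 10560.5 in classical monocytes, the Bnip3 shares were 63.1% and 22.1%. Thinning left out 1 Arg1 macrophage, 1 C1q macrophage, 0 classical monocytes and 41 NK cells of RES.

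The promoters of the members the Arg1 contrast turned on are shown here because these genes moved together and are known targets of HIF-1, whose binding core is ACGTG or GCGTG. RefSeq promoters (GRCm38.p6, 250 bases before to 50 after each start) were matched by symbol for 32 of the 34 members. ACGTG on either strand, read as ACGTG or CACGT, was present in 23 of these 32 genes (71.9%) and in 21.8% of all 27025 genes with such a promoter; among all promoters with 12 to 25 CG dinucleotides, the members' interquartile range, 28.1% of genes held it. GCGTG was present in 65.6% of the members, 35.2% of all genes and 53.6% of those with a like number of CG dinucleotides. The members were chosen as glycolysis and hypoxia genes, so a surplus of these cores among them is no result of these data. Where the strands overlap as CACGTG, the match counts on both. The stretches below lie wholly before the start and outside annotated exons, run 5′ to 3′ on the strand of the gene, and have the ACGTG matches in capitals.
Bnip3 (chr7:138909584-138909639, minus strand): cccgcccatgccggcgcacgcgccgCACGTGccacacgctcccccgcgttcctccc
Ankrd37 (chr8:46000062-46000100, minus strand): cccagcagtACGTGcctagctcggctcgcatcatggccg
Egln3 (chr12:54204074-54204124, minus strand): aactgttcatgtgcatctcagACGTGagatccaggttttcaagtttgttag
Ldha (chr7:46845731-46845799, plus strand): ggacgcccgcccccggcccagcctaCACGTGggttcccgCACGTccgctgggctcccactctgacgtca
Pgk1 (chrX:106186925-106186998, plus strand): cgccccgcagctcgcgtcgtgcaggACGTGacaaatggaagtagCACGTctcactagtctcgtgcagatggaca
Pgam1 (chr19:41911732-41911786, plus strand): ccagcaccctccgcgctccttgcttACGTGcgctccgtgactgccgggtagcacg
Hk2 (chr6:82774477-82774531, minus strand): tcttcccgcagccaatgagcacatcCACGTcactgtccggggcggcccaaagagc

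The first match of these stretches lay 108 bases before the start in Bnip3, 241 in Ankrd37, 229 in Egln3, 48 in Ldha, 150 in Pgk1 and 114 in Pgam1. Hk2 is printed beside them as a measured member that was not higher with Arg1 in C1q-high macrophages. Its promoter holds the same letters, 52 bases before the start. Of the 24 members higher with Arg1, 17 held ACGTG in a promoter and 7 did not: Gpi1, Pfkl, Pfkp, Pfkfb4, Tpi1, Eno1 and Pdk1. Of these 7, Pfkl, Pfkp, Pfkfb4, Eno1 and Pdk1 held the other core, GCGTG, and Gpi1 and Tpi1 held neither. Of the 3 measured members that were not higher, Hk2 and Hk3 held ACGTG, and no promoter was matched for Ndrg1. A match of these letters is a description of the sequence and not a bound site.

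The 9 Arg1 macrophages of the Ctrl library, with 85405 UMIs in all, had the 34 genes at 1.13% of their UMIs, beside 1.15% in the 604 of RES and 0.323% in Ctrl C1q macrophages. Their Arg1 level was 8829 CPM, beside 7848 CPM in RES. Gapdh was at 2178 CPM in Ctrl against 2143 CPM in RES Arg1 macrophages, Aldoa at 913.3 and 966.2 CPM, Mif at 1171 and 1058 CPM, Ldha at 1042 and 928.8 CPM, Pgk1 at 1054 and 864.4 CPM and Bnip3 at 128.8 and 155.3 CPM, each with an interval of the ratio that includes 0 on the log2 scale. Tpi1 (878.2 and 662.0 CPM; -0.41, -0.74 to -0.06) and Pkm (948.4 and 715.5 CPM; -0.41, -0.72 to -0.07) had higher levels in the Ctrl cells, short of 1.5-fold, with counting intervals that exclude 0. Hif1a (152.2 CPM from 13 UMIs, and 452.0 CPM; 1.57, 0.79 to 2.48) and Slc2a1 (11.7 CPM from 1 UMI, and 117.0 CPM; 3.32, 0.84 to 8.63) were higher in RES; Slc2a1 and Ndrg1 reached the minimum only through RES. Past 1.5-fold lay 9 of 26 measured members higher in RES and 1 lower (Pfkl, -0.63, -1.24 to 0.07), beside 18.2% and 21.1% of all genes. Of the Kupffer cell markers, the Ctrl cells held Cd5l at 327.8 CPM (15.2 CPM in RES) and Cd163 at 23.4 CPM from 2 UMIs (1.88 CPM in RES), with 0 UMIs of Clec4f, Timd4, Marco, Vsig4 and Folr2. The platelet marker Pf4 was at 737.7 CPM (183.6 in RES), but the other platelet markers Ppbp, Itga2b and Gp9 had 0 UMIs (38, 4 and 0 UMIs in RES). Spp1 was at 550.3 CPM (2157 in RES). The part of these values in the result was not tested.

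In the monocyte classes and NK cells few members passed 1.5-fold between the libraries. Classical monocytes had 2 of 24 measured members higher in RES and 0 lower, beside 3.38% and 4.15% of all genes: Eno1 at 100.3 CPM in Ctrl against 192.2 CPM in RES (log2 ratio 0.94, 0.74 to 1.14) and Ndrg1 at 41.5 and 68.2 CPM (0.72). Nonclassical monocytes had 3 of 20 higher and 0 lower, beside 7.07% and 3.26% of all genes: Aldoa (195.4 and 343.0 CPM, 0.81), Mif (37.4 and 63.7 CPM, 0.77) and Hif1a (55.4 and 83.3 CPM, 0.59). Intermediate monocytes had 0 of 20 higher and 1 lower, beside 4.67% and 3.06% of all genes: Pfkl, at 51.4 and 33.9 CPM (-0.60, -1.05 to -0.14). NK cells had 0 of 19 members past 1.5-fold in either direction, beside 0.659% of all genes higher and 0.434% lower, and their members summed to 0.216% of UMIs in Ctrl and 0.228% in RES. Their Slc2a3 level, for example, was 63.9 CPM in Ctrl against 63.7 CPM in RES.

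In C1q macrophages below the Arg1 minimum, 8 of 21 measured members were higher in RES and 0 lower, beside 9.96% and 12.0% of all genes, over 58 RES and 83 Ctrl cells. Hif1a was at 93.9 CPM in Ctrl against 268.6 CPM in RES (log2 ratio 1.52, 1.08 to 1.97), Slc16a3 at 28.2 and 79.9 CPM (1.5, 0.69 to 2.38), Eno1 at 81.4 and 193.8 CPM (1.25), Ldha at 189.4 and 375.7 CPM (0.99) and Pgk1 at 131.4 and 244.8 CPM (0.90). Pgam1 (0.71) and Tpi1 (0.63) lay just past 1.5-fold, and Slc2a1, which reached the minimum only through RES, rested on 8 and 17 UMIs with an interval that includes 0. The other measured enzymes did not pass, among them Aldoa (251.9 and 336.6 CPM) and Hk2 (142.4 and 105.4 CPM). When the 8 RES cells with 2 to 4 Arg1 UMIs were left out, 6 of 22 measured members were higher and 1 lower (Ldhb, -1.20, -2.82 to 0.19, which reached the minimum only through Ctrl), beside 10.4% and 11.6% of all genes, and Hif1a remained at 220.5 CPM in RES (1.23). Bnip3 did not follow, with 17.2 CPM in Ctrl against 6.80 CPM in RES (11 and 4 UMIs). Other values differed between these Ctrl and RES cells, and their part in the result was not tested: the dissociation genes summed to 2363 and 3215 CPM, with 7 of 13 measured higher and 2 lower (median log2 ratio 0.72), haemoglobin was at 1.56 and 13.6 CPM, cycling cells made up 4.82% and 10.3%, and C1qa was at 1886 and 945.3 CPM.

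Dendritic cells also had some members higher in RES. In cDC2, 6 of 21 measured members were higher and 1 lower, beside 5.56% and 4.53% of all genes: Eno1 (58.2 and 141.0 CPM, log2 ratio 1.28), Mif (109.2 and 236.1 CPM, 1.11), Aldoa (0.93), Pgk1 (0.73), Pfkp (0.67) and Tpi1 (0.63), with Slc2a3, which reached the minimum only through Ctrl, lower (29.1 and 17.2 CPM, -0.76). In cDC1, 5 of 20 were higher and 1 lower, beside 9.06% and 8.19% of all genes; Ldha was at 301.0 and 549.2 CPM (0.87) and Eno1 at 23.6 and 72.1 CPM from 17 and 52 UMIs (1.61), with P4ha1 (1.09), Aldoa (0.82) and Mif (0.67) also higher and Pfkfb3, measured only through its Ctrl level, lower (-1.0, -2.13 to 0.06). B cells had 2 of 17 higher and 1 lower, no larger a share than the 18.0% and 13.4% of all genes: Pfkl (9.44 and 36.0 CPM from 4 and 12 UMIs, 1.93; measured only through RES) and Eno1 (14 and 27 UMIs, 1.29), with Pdk1 lower (14 and 7 UMIs, -0.65).

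The enolase Eno1 passed 1.5-fold in classical monocytes, C1q macrophages, cDC1, cDC2 and B cells. It did not pass in intermediate monocytes (log2 ratio 0.46), nonclassical monocytes (0.56) or NK cells (0.43), where its level was also above that of Ctrl.

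**Figure D4:**
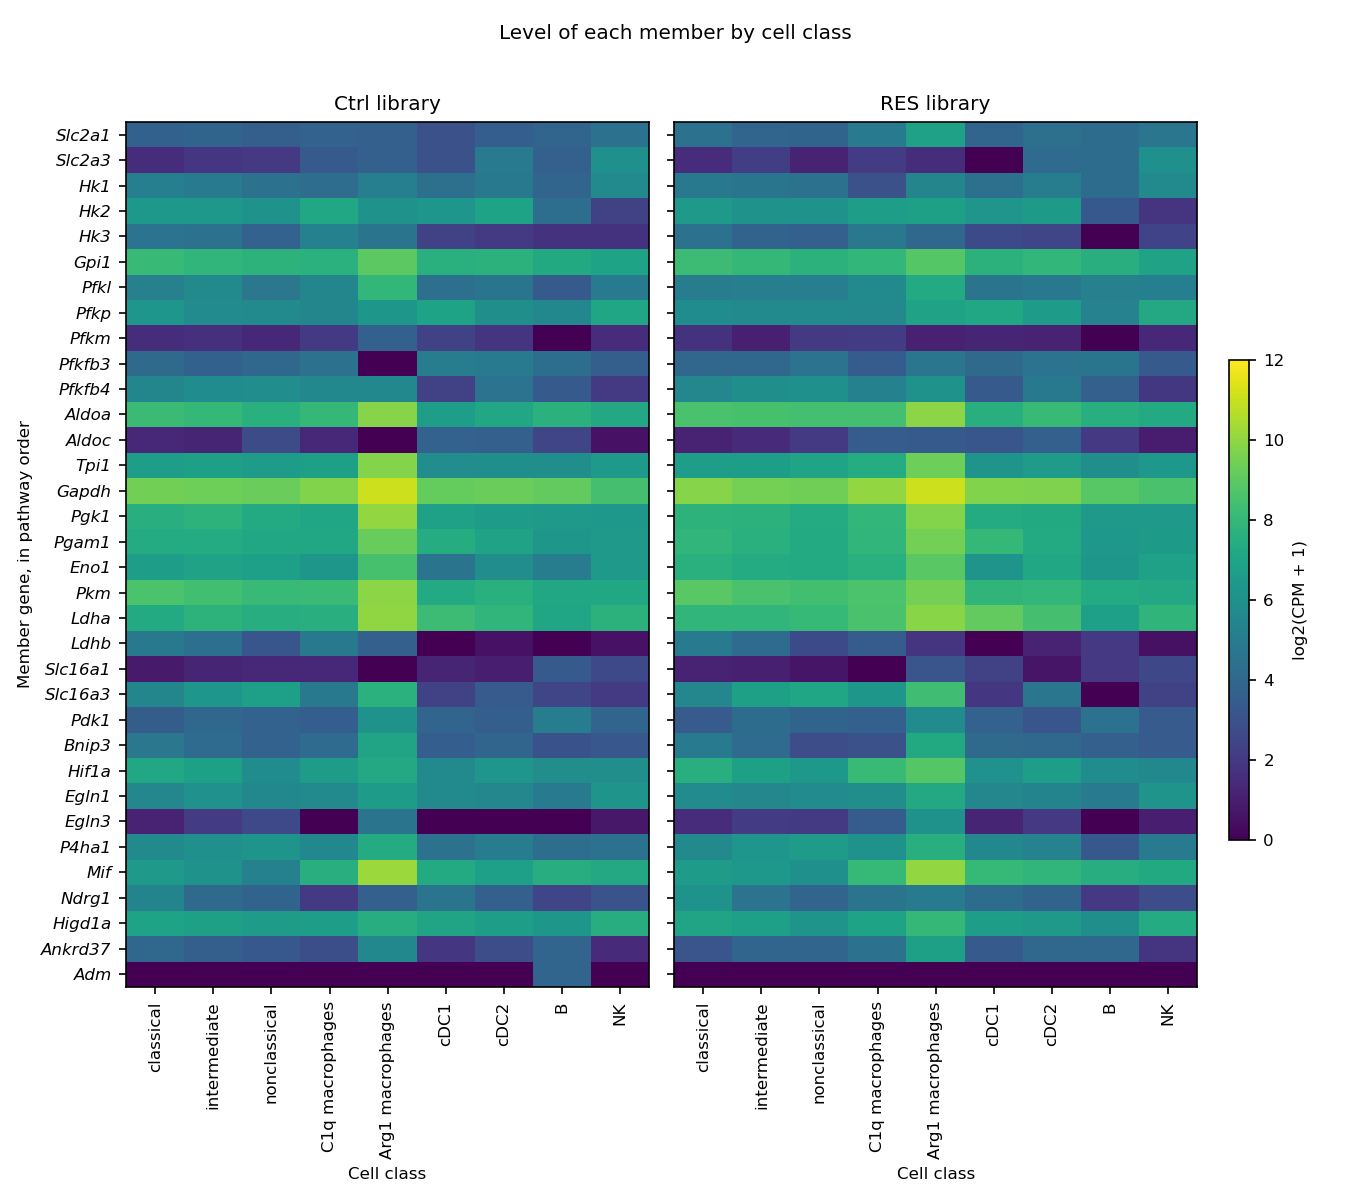
Level of each of the 34 members, as log2(CPM + 1), in 9 cell classes of the Ctrl library (left) and the RES library (right). In both libraries the Arg1 macrophages column (9 Ctrl cells, 604 RES cells) is brightest for Aldoa, Tpi1, Gapdh, Pgk1, Pgam1, Pkm, Ldha and Mif, and Hk2, Pfkfb4 and Slc16a3 are dark in NK cells.

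Cell classes differed in which isozyme made up most of the UMIs of its family. The shares below are of the UMIs of a gene family, uncorrected for how well each 3′ end is captured, and are compared between classes and not between genes. Hk1 made up 88.5% of hexokinase UMIs in NK cells of both libraries, against 25% in Ctrl and 20.1% in RES classical monocytes and 24.96% in RES Arg1 macrophages. In C1q macrophages, by contrast, Hk1 made up 9.45% in Ctrl and 4.88% in RES. Slc2a3 made up 74.4% and 71.9% of glucose carrier UMIs in NK cells and 1.69% (0.968 to 2.73) in RES Arg1 macrophages. Its share was 14.3% in Ctrl and 7.94% in RES classical monocytes, and 10.5% (1.30 to 33.1) in RES C1q macrophages. Slc16a1 made up 62.5% and 55.6% of lactate carrier UMIs in NK cells, from 48 and 63 UMIs, and 2.49% in RES Arg1 macrophages. The Slc16a1 share was likewise low in classical monocytes, at 1.77% in Ctrl and 2.75% in RES.

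Pfkl made up 57.1% of phosphofructokinase UMIs in RES Arg1 macrophages (55.0 to 59.2) and 72.4% in the Ctrl ones (52.8 to 87.3, from 29 UMIs). In C1q macrophages its share was 48.3% in Ctrl and 49.2% in RES (36.1 to 62.3), an interval that includes the RES Arg1 share. The Pfkl share was 47.8% and 39.8% in intermediate monocytes and 31.4% and 36.2% in classical monocytes. In NK cells it was 18.0% and 18.9%, and Pfkp took most of the rest. Ldhb made up 14.6% and 10.9% of lactate dehydrogenase UMIs in classical monocytes and 0.270% in RES Arg1 macrophages. In C1q macrophages the Ldhb share was 12.9% in Ctrl and 2.64% in RES (18 and 6 UMIs). Egln3 made up 31.5% of the UMIs of Egln1 and Egln3 in RES Arg1 macrophages and at most 10% in monocytes and NK cells of either library. Its share in C1q macrophages was 14.6% in RES (5.57 to 29.2, from 6 UMIs) and 0 of 32 UMIs in Ctrl. In Ctrl Arg1 macrophages the Egln3 share was 20%, from 10 UMIs of both genes. Eno3, the muscle enolase and no member, made up 71.1% and 68.1% of the UMIs of Eno1 and Eno3 in nonclassical monocytes, against 4.96% and 1.80% in classical ones.

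**Figure D5:**
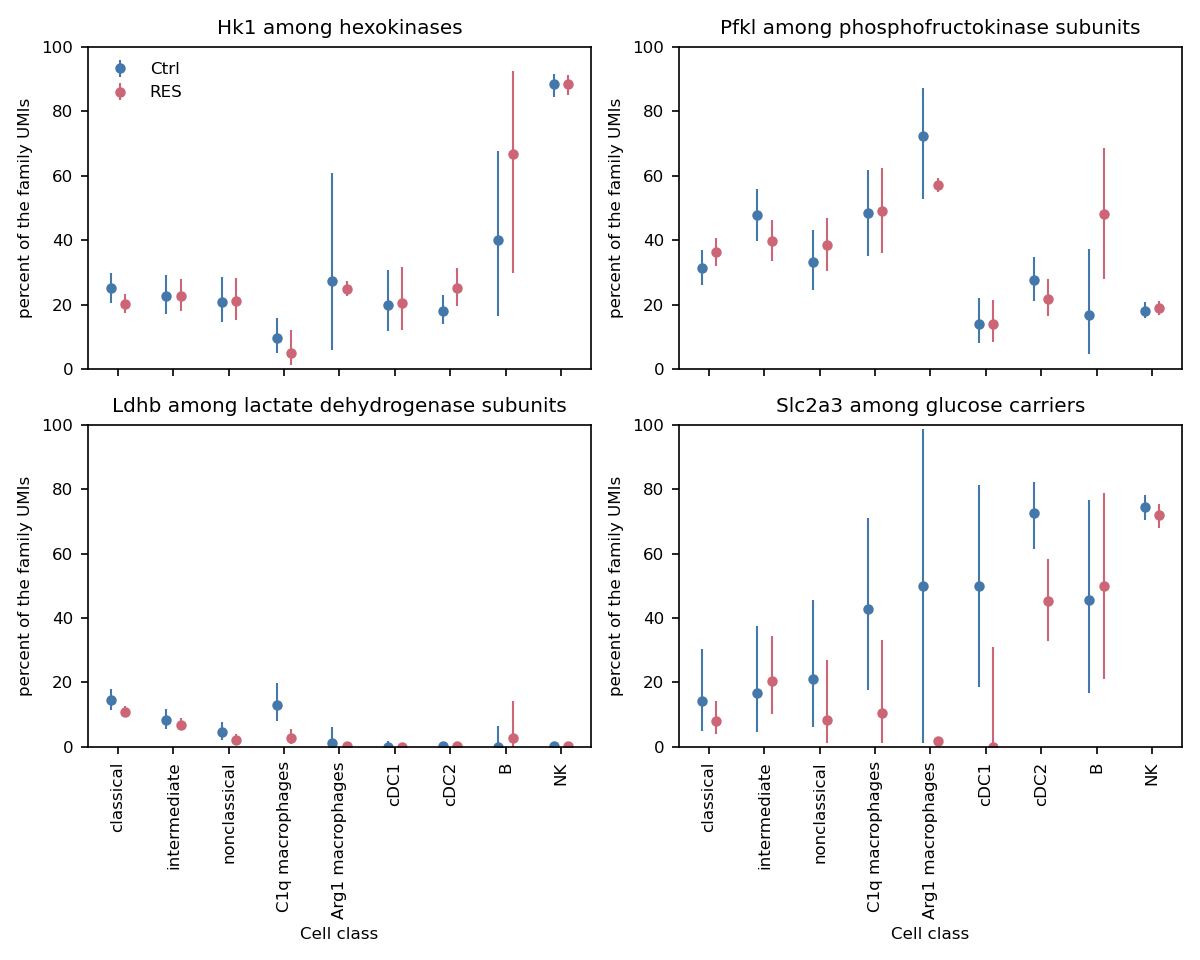
Share in percent of 1 isozyme among the UMIs of its family in 9 cell classes of Ctrl (blue) and RES (red); bars are exact 95% binomial intervals for counting error. Hk1 is near 88% in NK cells of both libraries. Pfkl is highest in Arg1 macrophages (57.1% in RES), beside 49.2% in RES C1q macrophages. Ldhb reaches 14.6% in Ctrl classical monocytes, and Slc2a3 is 1.69% in RES Arg1 macrophages.

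Some members are described here for their levels outside the phagocytes. Slc2a3 had 369 UMIs in NK cells of Ctrl and 432 in those of RES. Pfkfb3 was at 238.2 CPM in the 46 migratory dendritic cells (Ccr7 and Fscn1 gate) of Ctrl and 251.9 CPM in the 38 of RES, and between 9.59 and 33.3 CPM in NK cells, cDC1, cDC2, B cells, monocytes and C1q macrophages of both libraries. Adm had UMIs in B cells of Ctrl (14.2 CPM) and in migratory dendritic cells of RES (7.87 CPM) and 0 in the NK cells and phagocytes of both. These classes hold 423709 and 381041 UMIs in all, so both Adm levels rest on few UMIs. Higd1a was higher in NK cells (176.0 and 165.2 CPM) than in classical monocytes (124.0 and 126.4 CPM), and in RES below its level in Arg1 macrophages (253.4 CPM). In the 9 classes plotted, Aldoc did not exceed 12.5 CPM, and Pfkm did not exceed 4.16 CPM outside the 9 Ctrl Arg1 macrophages, where it had 1 UMI.

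Neighbouring pathways did not follow as a block. In phagocytes, RES against Ctrl, 0 of 7 measured genes of the pentose phosphate pathway, which branches from glycolysis, passed 1.5-fold (median log2 ratio -0.06; Pgd 0.44 and G6pdx -0.21 were the extremes). Of pyruvate entry into the mitochondria 0 of 7 did (median -0.11; Pdk3 -0.43, Dld 0.22), and of the citric acid cycle 1 of 20 was higher (Idh3a 0.77; median 0.15) and 0 lower. The oxygen sensing machinery beyond the members had 0 of 9 past 1.5-fold, with Siah2 at 0.40 and Cited2 at -0.42. Glucose-responsive regulators had 0 of 6, with the lowest ratio for Txnip, a brake on glucose uptake (271.5 and 186.5 CPM, -0.54). No gene of the gluconeogenesis list was measured, and of the glycogen list 1 of 5 was higher (Pgm1 0.82). Of 3 measured side enzymes and other isozymes 0 passed, and of 9 housekeeping genes 0 (median 0.15).

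Other genes known to be induced by hypoxia did stand higher: 7 of 15 measured were higher in RES phagocytes and 0 lower, beside 6.35% and 4.72% of all genes, with a median log2 ratio of 0.43 beside 0.03 for all genes. The angiogenic factor Vegfa had 11 UMIs in Ctrl and 1003 in RES phagocytes (1.66 and 53.3 CPM; 5.0, 4.16 to 6.01), and the lipid droplet protein Hilpda 52 and 1704 UMIs (7.86 and 90.5 CPM; 3.53). Both reached the minimum only through their RES level, so their place in this count depends on it. Bnip3l, the sister gene of Bnip3, was at 221.2 and 222.5 CPM (0.01), and Ddit4 at 22.1 and 24.4 CPM (0.14). Without Arg1 macrophages 1 of 12 was higher, beside 2.33% of all genes.

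By Arg1 status within RES, 11 of 18 measured genes of this hypoxia list were higher and 0 lower, beside 16.7% and 15.3% of all genes (median log2 ratio 1.32 beside 0.03), with Hilpda at 215.2 and 10.2 CPM (4.40) and Vegfa at 111.7 and 20.4 CPM (2.45). Hilpda reached the minimum only through the cells with Arg1, so its place in this count depends on them. Near that background, the citric acid cycle had 4 of 21 higher and 2 lower (median 0.04), and the pentose phosphate pathway 0 of 7 higher and 1 lower (median -0.03). Pyruvate entry had 0 of 7 higher and 1 lower, the pyruvate carrier subunit Mpc1 (147.0 CPM without Arg1 and 80.8 CPM with it, -0.86). Of the glycogen list 4 of 7 were higher and 1 lower, Gyg, the protein primer of glycogen (51.0 and 26.0 CPM, -0.97). Pygl and Gys1 stand on both the glycogen list and the hypoxia list, so the counts of these lists are not separate. Of 3 measured side enzymes and other isozymes, 2 were higher and 1 lower. Also near the background, the dissociation list had 3 of 14 higher and 2 lower (median 0.25), the housekeeping list 2 of 9 higher and 2 lower, and B2m was lower with Arg1 (-0.97).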

How the data were processed

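The authors deposited, for each of 2 libraries, a matrix of UMI counts per gene and cell barcode; per the file headers it was written by Cell Ranger 3.1.0. The build was mm10 and bcl2fastq was used, both per the submitters' processing notes. Which annotation served for counting is not given in the sources used here. These deposited counts were used as they stand, with totals of 20379164 UMIs in 3691 barcodes (Ctrl) and 34119806 in 4278 (RES). Kept cells had 200 or more genes and no more than 10% of UMIs from mitochondrial genes. Scrublet (scanpy 1.11.5) doublets, at a rate of 0.8% per 1000 cells, were left out (95 and 138 cells). Classes were gated on sums of marker UMIs (at least 3 for lymphoid and dendritic gates, at least 5 for phagocytes and their subsets), which left 454 and 400 cells in no class. UMIs were summed per class and scaled to CPM. Intervals are exact Poisson (levels), exact conditional binomial (log2 ratios) and Clopper-Pearson (shares), computed with scipy 1.17.1. Only those of the log2 ratios were tested on simulated counts, for mononuclear phagocytes. The counts were drawn from a Poisson model, which holds counting error only. A count of 0 is given the limit of 3 counts. No gene was tested, since each group is 1 library. The 34 members, the 11 other gene lists and the markers were chosen with earlier results of these data known, and the gate rules and the Arg1 division were set with these files in view. All members are accounted for; of each other list, the 2 highest and 2 lowest measured genes in phagocytes could be named. Promoters are those of RefSeq on GRCm38.p6, the build of mm10, with exons from GENCODE M21. Results were recomputed under 10 other settings, and 2 further ones were chosen after seeing the data.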

Additional observations from a re-analysis of the deposited data

Results flagged for a closer look

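Pfkl, the liver-type phosphofructokinase subunit, moved in opposite directions in 2 classes. It was higher in RES B cells, with a log2 ratio of 1.93 that rests on 4 UMIs in Ctrl and 12 in RES (9.44 and 36.0 CPM, so that it reached the minimum only through RES), and lower in RES intermediate monocytes, with a log2 ratio of -0.60 (51.4 CPM in Ctrl and 33.9 CPM in RES, from 76 and 94 UMIs). Each group is 1 library, and the difference between the classes was not tested. The phagocyte transcript Lyz2 was at 1057 CPM in Ctrl B cells and 117 CPM in RES B cells, and its part was not tested.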

How the results depend on the processing

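Of the 25 members measured in phagocytes, every 1.5-fold call was kept under 7 of 10 other settings, of which the minimums of 5 and 100 CPM cannot change a ratio, and 24 of 25 under the other 3 (thinning, the mean over cells, and a total without mitochondrial and ribosomal genes). With a minimum of 100 CPM, fewer genes enter: 12 members were then higher in phagocytes (of 13 measured), 1 in classical monocytes (of 11), 1 in nonclassical monocytes (of 10) and 15 by Arg1 status (of 16). The shares of all genes at that minimum are not given here, so these counts cannot be set against a background. Without Arg1 macrophages, a setting chosen after seeing the data, 2 members were higher in phagocytes, calls were kept for 7 of 25 members, and Pfkl turned to -0.12. Leaving out C1q macrophages with 2 to 4 Arg1 UMIs, also chosen after seeing the data, gave 6 members higher there in place of 8. In nonclassical monocytes 6 members were higher with gate minimums doubled (10.7% of all genes) and 7 higher and 2 lower after thinning (14.3% and 8.20% of all genes), and in NK cells 1 with the mean over cells (0.740% of all genes) and 1 after thinning (1.04%); the cause was not tested. No paired analysis was possible because each group holds 1 library. The classes of fewest UMIs (Ctrl Arg1 macrophages, B cells, C1q macrophages) limit the precision most.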
